A study of Danio rerio with 228 samples.

Results

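Zebrafish embryos exposed to 450 µM PFNA were set against embryos exposed to 400 µM PFHxS, the highest concentration of each chemical, by comparing how far each chemical moved every probe from its own solvent pools. PFNA (perfluorononanoic acid) is a longer-chain perfluorinated carboxylic acid and PFHxS (perfluorohexanesulfonic acid) a shorter-chain perfluorinated sulfonic acid. The comparison rested on 30 of the 228 libraries: 4 pools with PFNA at 450 µM, 16 DMSO pools of the PFNA set, 4 pools with PFHxS at 400 µM and 6 DMSO pools of the set that holds PFHxS. Each pool held 10 embryos of fish from Ottawa, exposed in 0.1% DMSO between 4 and 120 h post fertilisation, and the solvent pools received the same DMSO without either chemical. RNA was read by TempO-Seq, in which a detector probe for each target RNA is ligated and counted, on a panel of 3183 probes. The 2 concentrations differ, so the same difference was also taken at 200 µM and at 20 µM, at which both chemicals were tested. Whole embryos were pooled, so fewer cells of a type and less RNA per cell cannot be told apart in any result.

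Perfluorinated acids bind fatty acid carriers and lipid-sensing nuclear receptors such as the PPARs, and liver is their best known target in fish and mammals. At high concentrations such surfactant-like acids also perturb membranes and mitochondria, and cells answer with general stress programmes: heat shock chaperones, the integrated stress response that runs through the factors ATF4, ATF3 and the pseudokinase TRIB3, and the immediate-early genes whose FOS and JUN products pair as the AP-1 factor. A response of this kind can be common to many chemicals. What one acid does and another does not is read from the difference of their changes, which is the quantity followed here: a positive difference means a higher change with PFNA and a negative one a lower change with PFNA.

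Total counts over the 62 pools of the fit, which took in all 5 concentrations of each chemical, ran between 2483746 and 4466565. All PFNA pools and their DMSO pools were on plate 3, and all pools with 450 µM PFNA were in RNA extraction batch 14 with 4 of their 16 DMSO pools. The labels group all 16 as PFNA controls. The sample names of the other 12, DMSO pool 10 among them, begin with EM, ENV or EP and not with PFNA. The PFHxS pools and their DMSO pools were on plates 1 and 2 in other extraction batches. Pools 1 to 4 with 400 µM PFHxS were in batches 10, 5, 8 and 9. The DMSO pools 1 to 6 of that set were in batches 1, 1, 10, 4, 6 and 8. PFHxS pools 2 and 4 therefore shared no extraction batch with a DMSO pool of their set. The chemicals share no plate, batch or solvent pool, so beyond the subtraction of each set's own DMSO pools the chemical and the batch cannot be told apart. RNA yield averaged 176.8 ± 38.2 ng/µl with PFNA and 250.1 ± 51.1 ng/µl in its DMSO pools (SD, n = 4 and 16, adjusted p = 0.0256 by an exact two-sided permutation test of means, adjusted over 4 tests). With PFHxS it averaged 225 ± 76.5 ng/µl, against 287 ± 13.4 ng/µl in its DMSO pools (SD, n = 4 and 6, adjusted p = 0.0889 by the same exact test). The RNA integrity number averaged 9.38 ± 0.206 with PFNA and 9.69 ± 0.167 in its DMSO pools (adjusted p = 0.0256, exact permutation test). It averaged 9.78 ± 0.263 with PFHxS and 9.58 ± 0.232 in its DMSO pools (adjusted p = 0.41, exact permutation test). Markers of all 9 tissues looked for were detected, with 22 of 45 marker genes tested.

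Before the results, 2 libraries need to be named. The fourth pool with 400 µM PFHxS deviated from the median of the other pools of its group by 0.999 on the log2 scale (root mean square over all probes), and the tenth DMSO pool of the PFNA set by 0.835. The other 28 pools of the comparison deviated by 0.396 to 0.597. The deviations of these 2 pools, which share neither treatment nor plate, were alike across probes (Pearson's r = 0.73 over 2861 probes, a description, since probes are not independent). Deviations of DMSO pool 11 of the PFNA set, pool 4 with 20 µM PFHxS and pool 2 with 20 µM PFNA were also alike to those of PFHxS pool 4, with r of 0.52, 0.49 and 0.45, against −0.49 to 0.25 in the other 57 pools. A high value in PFHxS pool 4 raises the PFHxS change and a high value in PFNA DMSO pool 10 lowers the PFNA change, and both turn a difference negative. Each result below is therefore given with and without PFHxS pool 4 where its call depends on it.

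Much of the response was common to both acids. Of 2861 probes tested by edgeR's quasi-likelihood test with a Benjamini-Hochberg adjusted p under 0.05 as the threshold, 925 were called with PFNA, which is 32.3%, with 466 higher (16.3%) and 459 lower (16%). With PFHxS 632 were called, which is 22.1%, with 346 higher (12.1%) and 286 lower (10%). Called with both in the same direction were 368 probes, 210 of them higher, which is 39.8% of the PFNA calls and 58.2% of the PFHxS calls. Across probes the changes with PFNA and with PFHxS had a Pearson's r of 0.45 and a Spearman's rho of 0.40, and without PFHxS pool 4 0.57 and 0.56. Called in opposite directions were 7 probes. Without PFHxS pool 4, 998 probes were called with PFNA and 467 with PFHxS, and 78.4% of the PFHxS calls were then shared.

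Among genes that moved the same way and did not pass the test of the difference, the heat shock genes hsp70.3 and hsp70l, the interferon regulator irf7 and the matrix protease mmp9 had the highest joint rises. Levels are given as CPM, counts of a probe in 1000000 counts of its pool after scaling, and compare pools, not genes. The solvent levels of mmp9 were low, with 0.47 to 5.82 CPM over the DMSO pools of the PFNA set. The level of hsp70.3, which encodes an inducible chaperone, was 1023, 687, 220.9 and 703 CPM with PFNA, against 15.9 to 61.6 CPM (median 45.7) in its DMSO pools, and 400.1, 191.5, 514 and 51.4 CPM with PFHxS, against 33.3 to 45.6 CPM (median 39.1) in its DMSO pools. With either acid the exposed pools lay above every solvent pool of their own set, the lowest being PFHxS pool 4. Its log2 changes of 3.94 ± 0.26 with PFNA and 2.87 ± 0.36 with PFHxS (± SE) gave a difference of 1.07 (95% interval 0.14 to 2.00, adjusted p = 0.148), which was not called. For irf7 the changes were 3.87 ± 0.21 and 3.29 ± 0.29, with a difference of 0.58 (95% interval −0.19 to 1.34, adjusted p = 0.365), and no exposed pool overlapped the solvent pools of its set. The genes lowered most by both acids were the cell division genes ube2c and dlgap5, the cytochrome P450 gene cyp2aa8 and btr22, a TRIM family gene with 3 probes whose value is uncertain, since near-identical family members may share its counts. Levels of dlgap5 were near the floor, with 0 to 1.79 CPM under PFHxS. The change of ube2c, a ubiquitin conjugase of mitotic exit, was −2.02 ± 0.36 with PFNA and −1.77 ± 0.41 with PFHxS, with every exposed pool below every solvent pool of its own set. That of cyp2aa8 was −3.44 ± 0.54 with PFNA and −1.51 ± 0.47 with PFHxS. The lack of a called difference does not show that the acids act alike: the 95% interval of the difference had a median half-width of 0.64 on the log2 scale over the probes tested.

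The difference itself was called for 185 of the 2861 probes, which is 6.47%. Of these, 86 were higher with PFNA, which is 3.01% of all probes, and 99 lower, which is 3.46%. Of the 185, 52 were called higher with PFNA alone, 54 lower with PFNA alone, 26 higher with PFHxS alone and 17 lower with PFHxS alone. Another 18 were called the same way with both acids, 7 in opposite directions and 11 with neither. A further 444 probes called with PFNA alone and 214 called with PFHxS alone had no called difference, so a call with one acid and not with the other did not by itself mark a difference. Without PFHxS pool 4, 52 differences were called, 37 higher and 15 lower, and 50 of them were among the 185. Without that pool and PFNA DMSO pool 10 together, 58 were called, 39 higher and 19 lower, of which 52 were among the 185. Among these were anpepb, rps27l and ebp, which were not called when PFHxS pool 4 alone was left out. Leaving out PFHxS pool 1 or pool 2 gave 328 and 288 called differences, and leaving out PFNA pool 1 gave 120. Genes are named below by a rule set out with the processing. Beyond it, xbp1, junba, fosab, klf11b, ier2b, cyp51, ebp, hnf4a, tdo2a, dpys, rrm2b, plk3, xiap, col9a2, col2a1a, fkbp4, prss1, cel.2, sst1.1 and desma were named after their values were seen.

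The 2 pools bore unevenly on the 2 directions. PFHxS pool 4 held the highest value of its 4 pools for 82 of the 99 probes with a negative difference, against 1060 of all 2861 probes, and PFNA DMSO pool 10 held the highest of its 16 pools for 75 of the 99, against 697 of all probes. Among the 86 probes with a positive difference, PFHxS pool 4 held the lowest value for 63, against 1055 of all probes. Since these pools entered the fit that made the calls, the counts are a description.

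**Figure D1:**
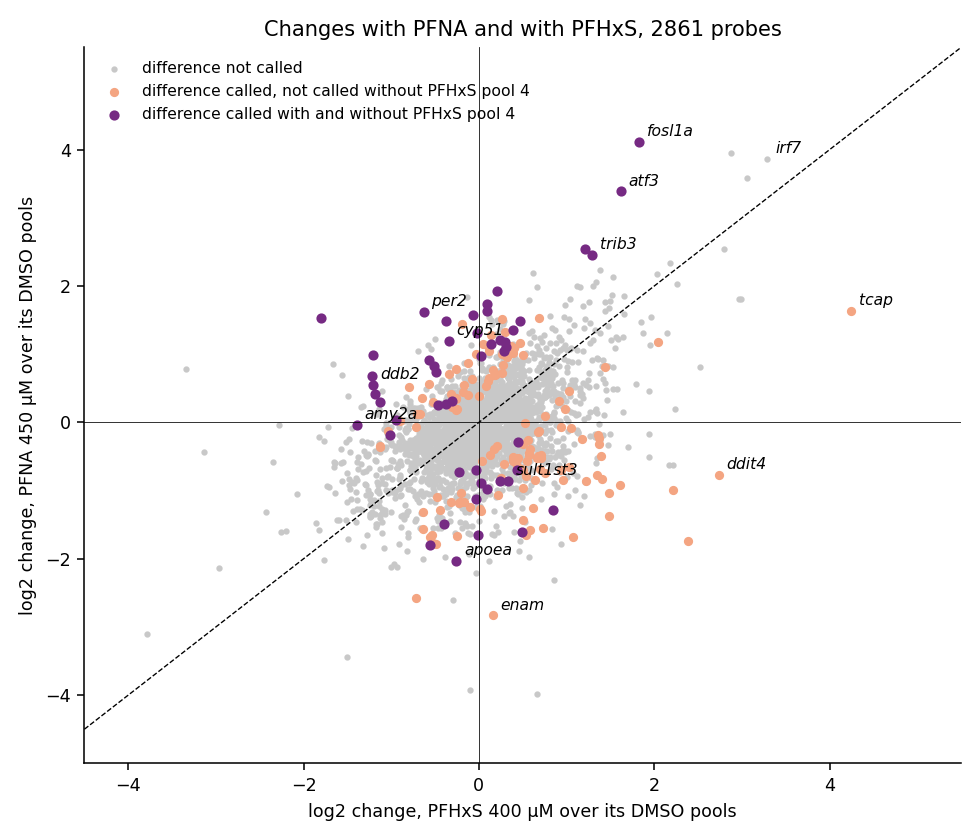
Log2 change with 450 µM PFNA over its DMSO pools (y axis) against log2 change with 400 µM PFHxS over its DMSO pools (x axis) for 2861 probes, with the line of equal change dashed. Purple points are the 50 probes whose difference was called with and without PFHxS pool 4, orange points the other called differences, which lie mostly below the line, and grey points probes with no called difference.

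The stress genes atf3 and trib3 and the AP-1 genes fosl1a, junba and fosab rose over their own DMSO pools with both acids, and further with PFNA. The gene atf3 encodes a stress-induced transcription factor. Its level was 887, 822, 597 and 765 CPM with PFNA, against 49.9 to 109.9 CPM (median 65.6) in the DMSO pools of that set, and 600, 338, 580.3 and 305 CPM with PFHxS, against 99.6 to 209.1 CPM (median 141.3) in its DMSO pools. All exposed pools lay above all solvent pools of their own set. The log2 change was 3.39 ± 0.14 with PFNA and 1.62 ± 0.18 with PFHxS, a difference of 1.77 (95% interval 1.27 to 2.26, adjusted p = 1.51e-06), and without PFHxS pool 4 it was 1.62 (adjusted p = 1.90e-05). The pseudokinase gene trib3, a target of ATF4 that restrains Akt signalling, stood at 779, 778, 555 and 804 CPM with PFNA, against 93.2 to 194.9 CPM (median 128.8) in the DMSO pools, and at 400.4, 289, 389 and 367 CPM with PFHxS, against 135.9 to 160.5 CPM (median 143.6) in its DMSO pools. No group of exposed pools overlapped its solvent pools, and the solvent pools of the sets overlapped. Its changes of 2.45 ± 0.12 and 1.3 ± 0.15 differed by 1.16 (95% interval 0.74 to 1.57, adjusted p = 2.41e-04).

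Of the 26 tested genes of the integrated stress and unfolded protein response list, 13 were called higher and 2 lower with PFNA, and 14 higher and 0 lower with PFHxS. The difference was called higher for 3, atf3, trib3 and xbp1, and lower for 2, ddit4 and pdia6. The median difference of the list was −0.13, against −0.05 over all probes, and 0.060 without PFHxS pool 4. Counts of this and later lists stand beside the shares over all probes: 16.3% called higher and 16% lower with PFNA, and 12.1% and 10% with PFHxS. For the difference these shares were 3.01% higher and 3.46% lower. The change of xbp1, the factor spliced by the unfolded protein response, was 0.99 ± 0.089 with PFNA and 0.51 ± 0.11 with PFHxS, and its difference of 0.48 (95% interval 0.19 to 0.77, adjusted p = 0.0312) was not called without PFHxS pool 4 (adjusted p = 0.0879) and was called in 24 of the 30 fits that each left out 1 pool. The calls of ddit4, an inhibitor of mTORC1, and pdia6, a protein disulfide isomerase, rested on that pool: ddit4 had 11, 6.79, 22.2 and 148.9 CPM with PFHxS, and its difference was −3.50 with the pool and −1.66 without it (adjusted p = 0.538). For pdia6 the difference was −2.86 with the pool and −1.28 without it.

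The immediate-early and AP-1 list held the most called differences of the 26 lists. Of its 28 tested members, 21 were called higher and 0 lower with PFNA, 13 higher and 1 lower with PFHxS, and 8 had a positive and 0 a negative called difference, of which 7 were called without PFHxS pool 4. Its median log2 change was 0.99 with PFNA and 0.55 with PFHxS, against −0.086 and −0.0044 over all probes. The FOS-family gene fosl1a had 1922, 1518, 1078 and 1765 CPM with PFNA, against 46.8 to 172.7 CPM (median 79.7) in the DMSO pools, and 656, 326, 1066 and 494 CPM with PFHxS, against 73.4 to 367 CPM (median 152.98) in its DMSO pools. The PFNA pools stood far above their solvent pools, while 1 PFHxS pool lay within the solvent range. Its difference was 2.29 (95% interval 1.43 to 3.14, adjusted p = 4.03e-04). For junba, a JUN-family partner, the level was 1452, 1279.7, 1091 and 1387 CPM with PFNA and 795, 683, 977 and 405 CPM with PFHxS, and the difference 1.32 (95% interval 0.74 to 1.90, adjusted p = 0.00283). The changes of fosab, a zebrafish c-Fos gene, were 1.49 ± 0.14 with PFNA and 0.47 ± 0.18 with PFHxS, a difference of 1.02 (95% interval 0.55 to 1.49, adjusted p = 0.00489). The repressor klf11a moved in opposite directions, by 0.82 ± 0.11 with PFNA and −0.52 ± 0.13 with PFHxS, and neither acid's pools overlapped their solvent pools, which did not overlap each other either. Its difference was 1.34 (95% interval 1.0 to 1.68, adjusted p = 1.74e-07). Its paralog klf11b had a difference of 1.33, the antiproliferative gene btg2 of 0.97 and ier2b of 0.93, the last of which was not called without PFHxS pool 4 (adjusted p = 0.185).

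Circadian genes of the negative limb rose with PFNA, and in the fit with all pools their changes with PFHxS were negative and not called. In zebrafish the repressor genes per2 and cry1a are induced by light and set the clock, and nfil3 encodes a repressor that competes at the same promoters as the D-box activators. The level of per2 was 105.5, 136.05, 101.2 and 132.8 CPM with PFNA, against 13.8 to 79 CPM (median 35.6) in the DMSO pools, and 84.1, 115.02, 130.6 and 345 CPM with PFHxS, against 206.1 to 341 CPM (median 250.3) in its DMSO pools. The PFNA pools lay above all of their solvent pools, 3 PFHxS pools lay below all of theirs, and PFHxS pool 4 lay above them. The difference was 2.25 (95% interval 1.41 to 3.09, adjusted p = 4.03e-04) and, without PFHxS pool 4, 2.88 (adjusted p = 4.29e-06). PFHxS pool 4 was the lowest PFHxS pool for cry1a and nfil3. It held 132.5 CPM of cry1a and the other PFHxS pools 233.5 to 309.0 CPM, against 307.4 to 416.8 CPM in their DMSO pools. For nfil3 it held 22.2 CPM and the others 87.9 to 142.3 CPM, against 82.3 to 142.2 CPM in their DMSO pools. The differences of cry1a and nfil3 were 1.48 (95% interval 0.83 to 2.13, adjusted p = 0.00288) and 1.86 (95% interval 1.15 to 2.57, adjusted p = 4.99e-04). Of 15 tested clock genes, 7 were called higher and 0 lower with PFNA, 1 higher and 1 lower with PFHxS (0 higher and 1 lower without PFHxS pool 4), and these 3 had a called difference, with and without PFHxS pool 4. The solvent pools themselves differed: per2 averaged 38.8 ± 19.6 CPM in the DMSO pools of the PFNA set and 262 ± 56.6 CPM in those of the PFHxS set (SD, n = 16 and 6), with no overlap. The solvent pools of the sets also failed to overlap for cry1a, nfil3, klf11a, klf11b, abhd4, nfe2l2b, angptl4, ddb2, ggcx and loc110437775. These genes were named for their differences, of which the solvent levels are a part. How many of all probes had solvent pools without overlap was not counted.

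The same genes were followed over the 5 concentrations of each chemical. For per2 the log2 change at 4, 20, 40, 200 and 450 µM PFNA was 0.70, 0.93, 1.26, 1.48 and 1.62, and at 6, 20, 60, 200 and 400 µM PFHxS it was −1.34, −1.44, −1.56, −1.47 and −0.63, with adjusted p = 0.0292 at 6 µM. With PFHxS the departure from DMSO was thus already present at 6 µM, and it was no larger at 400 µM. The same held for fosl1a at the low end, with changes of −1.86, −1.91, −1.50, 0.84 and 1.82 over the 5 PFHxS concentrations and 0.47, 1.23, 1.29, 1.6 and 4.11 over the 5 PFNA concentrations. When each chemical's own lowest concentration, 4 µM PFNA and 6 µM PFHxS, took the place of its DMSO pools, the difference was 0.21 for per2, 0.23 for cry1a, 0.64 for nfil3, 0.41 for klf11a and 0.60 for atf3, and −0.042 for fosl1a, and none of these was called. The lipid hydrolase gene abhd4 was of the same kind: its difference was 1.64 (95% interval 1.24 to 2.04, adjusted p = 8.88e-08), its changes over the PFHxS series were −0.76, −0.76, −0.46, −0.11 and 0.10, those over the PFNA series 0.59, 0.81, 0.86, 1.32 and 1.73, and the difference from the lowest concentrations 0.29. Over all probes, 15 differences were called with the lowest concentrations as baseline, 7 higher and 8 lower, and 5 of the 185 were among them.

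**Figure D2:**
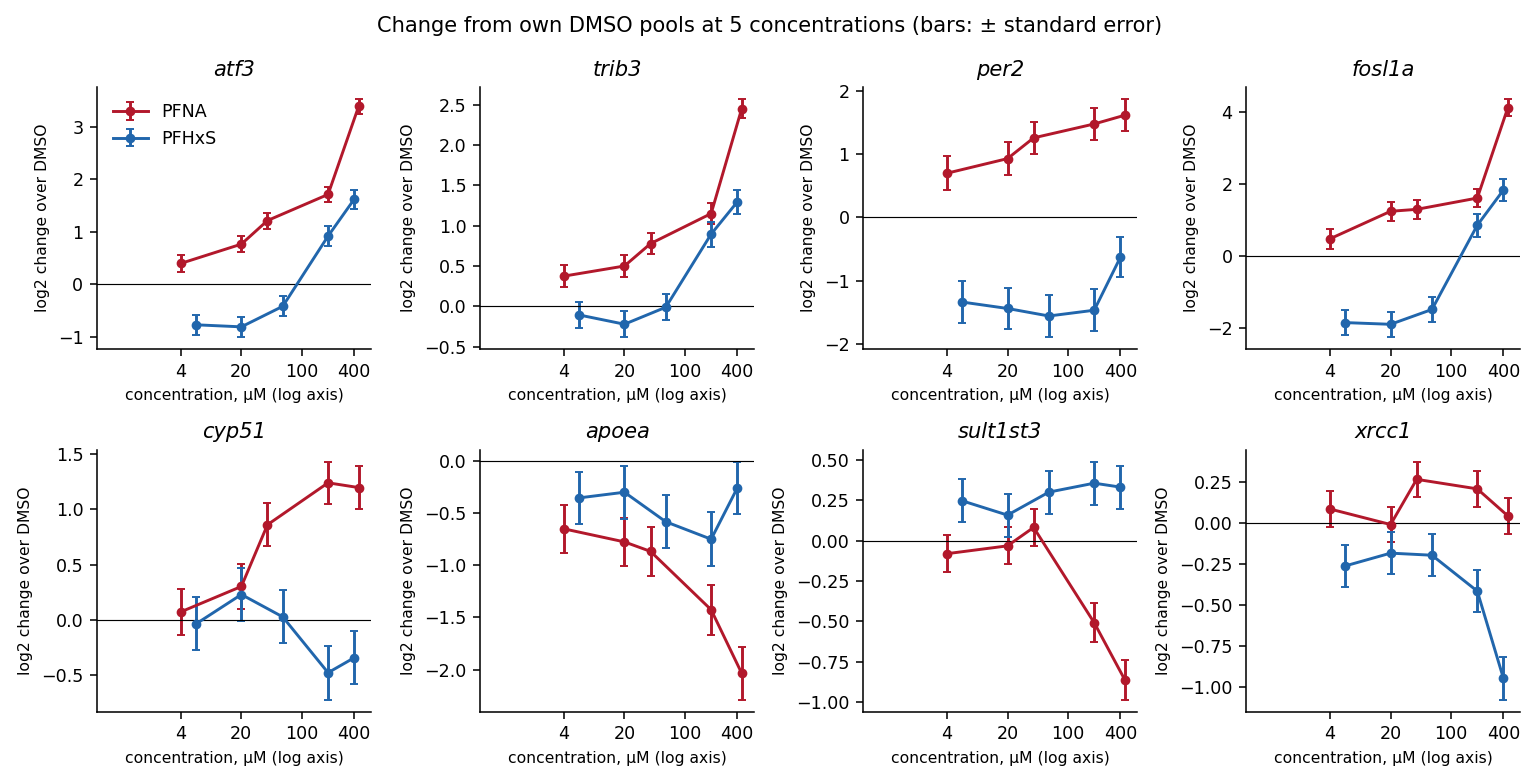
Log2 change over own DMSO pools (y axis, ± SE) at 5 concentrations in µM (x axis, log scale) for 8 genes, PFNA in red and PFHxS in blue. For atf3 and trib3 both lines climb and PFNA ends higher, for per2 the lines stay apart at every concentration, and for sult1st3 and xrcc1 the gap is widest at the highest concentration.

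The sterol genes cyp51 and ebp rose with PFNA, and the liver genes apoea, hnf4a and tdo2a fell with PFNA, in each case with a called difference from PFHxS. The cholesterol synthesis and uptake list had 8 of 13 tested genes called higher and 0 lower with PFNA, and 0 called in either direction with PFHxS (2 higher and 1 lower without PFHxS pool 4). The difference was called for cyp51 and ebp. The level of cyp51, the lanosterol demethylase, was 140.4, 101.3, 111.5 and 131.5 CPM with PFNA, against 36.2 to 71.6 CPM (median 51.4) in the DMSO pools, and 48.8, 41.4, 49.7 and 104.1 CPM with PFHxS, against 54.1 to 106.9 CPM (median 75.4) in its DMSO pools. Every PFNA pool exceeded every solvent pool of its set, 3 of the 4 PFHxS pools lay below all of theirs, and pool 4 lay within their range. The difference was 1.54 (95% interval 0.91 to 2.18, adjusted p = 0.00133) and, without PFHxS pool 4, 1.94 (adjusted p = 4.46e-05). For ebp, a sterol isomerase, it was 1.64 (95% interval 0.62 to 2.66, adjusted p = 0.0375), and it was not called without that pool (adjusted p = 0.0775) and in 21 of the 30 fits without 1 pool it was called. Levels of ebp were low, with 0.82 to 11.3 CPM in the PFNA DMSO pools and 2.86 to 7.30 CPM with PFHxS.

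Among liver and plasma protein genes, 8 of 27 were called higher and 11 lower with PFNA, and 6 higher and 2 lower with PFHxS. The list's median change was −0.45 with PFNA and 0.079 with PFHxS (0.00084 without PFHxS pool 4), and 5 members had a negative and 0 a positive called difference, 3 of which were called without that pool. The 4 liver markers tested summed to 6410.1 to 8475 CPM with PFNA, against 4072 to 8063 CPM in its DMSO pools, and to 7609 to 9534 CPM with PFHxS, against 6184 to 8423 CPM in its DMSO pools, and their part in these counts was not tested. The gene apoea encodes an apolipoprotein E, a carrier of lipid in plasma and between cells. Its level was 134.6, 176.9, 173.3 and 166.3 CPM with PFNA, against 446 to 1729 CPM (median 597) in the DMSO pools, and 490.0, 452, 431 and 1470.2 CPM with PFHxS, against 610.1 to 1199 CPM (median 788) in its DMSO pools. PFNA pools lay below all solvent pools of their set, and so did 3 PFHxS pools, while PFHxS pool 4 lay above its solvent pools and PFNA DMSO pool 10 was the highest of its group. The difference was −1.78 (95% interval −2.46 to −1.1, adjusted p = 4.99e-04), −1.13 without PFHxS pool 4 (adjusted p = 0.0292) and −0.98 without both pools (adjusted p = 0.00411). The hepatocyte transcription factor gene hnf4a averaged 76.3 ± 11.2 CPM with PFNA and 124.1 ± 20.2 CPM in its DMSO pools, with no overlap, and 112.9 ± 11.5 CPM with PFHxS and 115.7 ± 17.7 CPM in its DMSO pools (SD). Its difference was −0.66 (95% interval −1.02 to −0.31, adjusted p = 0.0168), called without PFHxS pool 4 (adjusted p = 0.0384) and not without PFNA pool 1. For tdo2a, the tryptophan dioxygenase of liver, it was −0.50 (95% interval −0.82 to −0.17, adjusted p = 0.0487), called in 7 of the 30 fits without 1 pool. The difference of serpina1, the plasma protease inhibitor, was −0.83 (95% interval −1.23 to −0.43, adjusted p = 0.00593), and that of f2, prothrombin, −1.38 (95% interval −2.12 to −0.65, adjusted p = 0.0162), and neither was called without PFHxS pool 4 (adjusted p = 0.0989 and 0.275).

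Fatty acid genes gave differences in both directions. The fatty acid receptor gene cd36 had 144.97, 127.2, 164.4 and 189.3 CPM with PFNA, against 321 to 807 CPM (median 422) in the DMSO pools, and 251, 276, 276 and 547 CPM with PFHxS, against 417 to 469 CPM (median 443) in its DMSO pools. Every PFNA pool lay below every solvent pool, as did 3 PFHxS pools, and the difference was −1.09 (95% interval −1.54 to −0.64, adjusted p = 0.00133), or −0.74 without PFHxS pool 4 (adjusted p = 0.0363). At 200 µM cd36 fell by similar amounts, with changes of −0.89 with PFNA and −0.83 with PFHxS, both called. The lipoprotein lipase inhibitor gene angptl4, a PPAR target, changed by 1.18 ± 0.12 with PFNA and 0.30 ± 0.15 with PFHxS, a difference of 0.88 (95% interval 0.49 to 1.27, adjusted p = 0.00288). Its level with PFNA was 1831, 1734, 1644 and 1573 CPM, above all 16 solvent pools, and with PFHxS 1709.8, 1729.5, 1495 and 744 CPM, with 3 pools above the solvent pools and pool 4 below them. The changes of angptl4 over the PFNA series were 0.37, 0.57, 0.63, 0.75 and 1.18, and over the PFHxS series −0.36, −0.38, −0.23, 0.061 and 0.30. The difference of hadh, an enzyme of mitochondrial fatty acid oxidation, was −1.19, and −0.53 without PFHxS pool 4 (adjusted p = 0.504). Of the 30 tested genes of fatty acid oxidation and PPAR targets, 11 were called higher with each acid, 6 lower with PFNA and 1 lower with PFHxS. Without PFHxS pool 4, 12 were called higher and 7 lower with PFNA, and 8 higher and 1 lower with PFHxS. The 5 genes of fatty acid and triglyceride synthesis had no called difference.

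Among genes of foreign compound metabolism, sult1st3 was lower with PFNA and nr1i2 higher. The cytosolic sulfotransferase gene sult1st3 stood at 73.4, 72.3, 92.7 and 79.4 CPM with PFNA, against 105.8 to 184.8 CPM (median 150.2) in the DMSO pools, and at 126.5, 159.7, 125.1 and 203.5 CPM with PFHxS, against 95.2 to 138.7 CPM (median 128.4) in its DMSO pools. The PFNA pools lay below all of their solvent pools and the PFHxS pools overlapped theirs. The change was −0.86 ± 0.12 with PFNA and 0.33 ± 0.13 with PFHxS, a difference of −1.19 (95% interval −1.55 to −0.83, adjusted p = 8.33e-06). Without PFHxS pool 4 the difference was −1.01, with the lowest concentrations as baseline −0.86 (adjusted p = 0.0461), and with extraction batch as a term in the fit −1.17 (adjusted p = 0.00347). Among 80 named genes with a called difference, 5 kept the call with that baseline and 16 with that term. The pregnane X receptor gene nr1i2, which senses foreign compounds, averaged 538 ± 20.8 CPM with PFNA and 251 ± 52.4 CPM in its DMSO pools, with no overlap, and 358 ± 46.7 CPM with PFHxS and 288 ± 37.3 CPM in its DMSO pools (SD), a difference of 0.79 (95% interval 0.42 to 1.16, adjusted p = 0.00565). The vitamin D hydroxylase gene cyp24a1 had a difference of 1.71 (95% interval 0.86 to 2.56, adjusted p = 0.00966), called without PFHxS pool 4 (adjusted p = 0.048) and not without both outlying pools (adjusted p = 0.0522). Its changes over the PFNA series were 1.12, 1.36, 1.13, 1.16 and 1.92, and over the PFHxS series −0.55, −0.79, −0.82, 0.29 and 0.21. Against all 16 DMSO pools, the change was already called at 4 µM PFNA (adjusted p = 0.0317, quasi-likelihood test). The pools with 4 µM PFNA were in extraction batch 14 and 12 of those DMSO pools were not. The part of the batch in this change was not tested. Of 34 tested genes of this list, 6 were called higher and 7 lower with PFNA, and 2 higher and 3 lower with PFHxS (1 higher and 2 lower without PFHxS pool 4). Over all probes, 16.3% were called higher and 16% lower with PFNA, and 12.1% higher and 10% lower with PFHxS.

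Of 21 oxidative stress genes, 9 were called higher and 2 lower with PFNA, 3 higher and 2 lower with PFHxS (3 higher and 1 lower without PFHxS pool 4), and 3 had a positive called difference. One was nfe2l2b, a zebrafish paralog of the antioxidant regulator NRF2, with 48.9, 57.7, 32 and 34.9 CPM under PFNA, against 8.58 to 24.5 CPM (median 14.4) in the DMSO pools, and 47.5, 36.8, 38 and 15.1 CPM under PFHxS, against 25.4 to 43.4 CPM (median 30.9) in its DMSO pools. The PFNA pools lay above all of their solvent pools and the PFHxS pools overlapped theirs, and the difference was 1.54 (95% interval 0.95 to 2.13, adjusted p = 4.99e-04). The glutathione transferase gene gstp1 had a difference of 0.62 (95% interval 0.26 to 0.98, adjusted p = 0.0266), called without PFHxS pool 4 (adjusted p = 0.0493) and in 27 of the 30 fits without 1 pool, and the peroxiredoxin gene prdx1 one of 1.26 (95% interval 0.45 to 2.06, adjusted p = 0.0458), which was not called without PFHxS pool 4 (adjusted p = 0.143). Levels of prdx1 were low, with 1.75 to 9.06 CPM in the PFNA DMSO pools. In the inflammation list, 14 of 28 genes were called higher and 0 lower with PFNA, and 11 higher and 0 lower with PFHxS (7 higher and 0 lower without PFHxS pool 4). The Toll-like receptor adaptor gene myd88, measured by 2 probes of which the more abundant is given, had a difference of 1.02 (95% interval 0.56 to 1.47, adjusted p = 0.00323) and the cyclooxygenase gene ptgs2b one of 1.64 (95% interval 0.84 to 2.43, adjusted p = 0.00727). The cytokine signalling inhibitor gene socs1a had the opposite sign, −1.6, not called without PFHxS pool 4 (adjusted p = 0.201).

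The genes xrcc1, blvra and sod3b fell with PFHxS and were not called with PFNA, and ddb2 fell with PFHxS and rose with PFNA. The scaffold gene of single-strand break repair, xrcc1, stood at 174.6, 190.96, 188.2 and 137.9 CPM with PFNA, against 114.9 to 211.7 CPM (median 175.1) in the DMSO pools, and at 133.9, 145.02, 124.5 and 89.7 CPM with PFHxS, against 191.9 to 303 CPM (median 233.3) in its DMSO pools. The PFNA pools overlapped their solvent pools, and all 4 PFHxS pools lay below all of theirs. The changes of 0.041 ± 0.11 and −0.95 ± 0.13 differed by 0.99 (95% interval 0.65 to 1.32, adjusted p = 9.27e-05), and by 0.87 without PFHxS pool 4 (adjusted p = 0.00105). The damage-recognition gene ddb2, a p53 target in mammals, moved in opposite directions, with 37.6, 33.2, 40.5 and 30.7 CPM under PFNA, against 13.5 to 41.4 CPM (median 22.1) in the DMSO pools, and 31.7, 31.4, 37.4 and 21.4 CPM under PFHxS, against 57 to 98.4 CPM (median 62.2) in its DMSO pools. Its PFNA pools overlapped the solvent pools, its PFHxS pools lay below theirs, and its difference was 1.75 (95% interval 1.12 to 2.39, adjusted p = 3.21e-04). The exposed pools of both acids overlapped in their levels of ddb2, and the solvent pools did not. Biliverdin reductase (blvra) changed by 0.42 ± 0.20 with PFNA and −1.19 ± 0.24 with PFHxS, a difference of 1.6 (95% interval 0.99 to 2.22, adjusted p = 4.99e-04). Its levels were 10.5 to 28.8 CPM with PFHxS and 24.9 to 73.3 CPM in the DMSO pools of that set, which overlapped. The DMSO pools of the PFNA set held 12.5 to 31.4 CPM. Over the PFHxS series the changes of blvra were −0.57, −0.87, −0.83, −0.90 and −1.19. For sod3b, an extracellular superoxide dismutase, the changes were 0.31 ± 0.20 and −1.13 ± 0.24 and the difference 1.44 (95% interval 0.81 to 2.06, adjusted p = 0.00273). Levels of sod3b were 8.77 to 20.1 CPM with PFHxS and 17.2 to 47.8 CPM in the DMSO pools of that set, which also overlapped. A further probe picked by the rule, which has a clone-based name not printed here and no role given, stood at 4460.0, 5306, 5962 and 5087 CPM with PFNA, against 3974 to 7830.1 CPM (median 6165) in the DMSO pools, and at 4389, 4807, 4907 and 3541 CPM with PFHxS, against 8028 to 9836 CPM (median 8947) in its DMSO pools. Its PFNA pools overlapped their solvent pools, its PFHxS pools lay below all of theirs, and the solvent pools of the sets did not overlap. The difference was 0.83 (95% interval 0.48 to 1.17, adjusted p = 0.00156), and 0.74 without PFHxS pool 4 (adjusted p = 0.0171).

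In the p53 and apoptosis list, 19 of 32 genes were called higher and 1 lower with PFNA, 11 higher and 3 lower with PFHxS, and 6 had a positive and 0 a negative called difference. Of the 6, ddb2 and btg2 were called without PFHxS pool 4, and rps27l, plk3, rrm2b and xiap were not. The ribonucleotide reductase subunit gene rrm2b had a difference of 1.13, the kinase gene plk3 of 1.1, rps27l of 0.99 and the caspase inhibitor gene xiap of 0.75. In the cell cycle and replication list, 42 of 70 were called lower and 0 higher with each acid, 29 of them with both. Without PFHxS pool 4 the lower calls were 46 with PFNA and 39 with PFHxS. The median change with all pools was −1.0 with PFNA and −0.98 with PFHxS. A called difference was found for 3 of the 70, tpx2 and cenpf, both of the mitotic spindle and kinetochore, and the replication helicase gene mcm4, and for none without PFHxS pool 4.

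The pancreatic amylase gene amy2a had 849, 523, 633 and 571 CPM with PFNA, against 391 to 989 CPM (median 650.3) in the DMSO pools, and 225.1, 438, 415 and 249 CPM with PFHxS, against 372 to 1112 CPM (median 957) in its DMSO pools. The PFNA pools lay within the solvent range, and 2 of the 4 PFHxS pools lay below the lowest of theirs. Its difference was 1.36 (95% interval 0.71 to 2.00, adjusted p = 0.00593), called with and without PFHxS pool 4, and its changes over the PFHxS series were −0.25, −0.24, −0.65, −0.67 and −1.39. Aminopeptidase N of the gut border, anpepb, had a difference of 1.01 (95% interval 0.51 to 1.52, adjusted p = 0.00999), not called without that pool (adjusted p = 0.0788), and intestinal alkaline phosphatase, alpi.2, the opposite sign with −1.07 (95% interval −1.58 to −0.56, adjusted p = 0.00593). Of 17 tested digestive genes, 2 were called higher and 5 lower with each acid (without PFHxS pool 4, 3 higher with PFNA and the other counts the same). Differences were called for 6, positive for amy2a, anpepb, the trypsin gene prss1 and the lipase gene cel.2, and negative for alpi.2 and the somatostatin gene sst1.1, and 2 of the 6 were called without PFHxS pool 4. As the marker of exocrine pancreas, prss1 ranged over 17063 to 20471 CPM with PFNA, against 11164 to 23929 CPM in its DMSO pools, and over 4043 to 12079 CPM with PFHxS, against 6593 to 20452 CPM in its DMSO pools, and its part in the amylase result was not tested.

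Further single genes had called differences. The acetyltransferase gene ep300a moved in opposite directions, by 0.67 ± 0.26 with PFNA and −1.22 ± 0.35 with PFHxS, a difference of 1.89 (95% interval 1.03 to 2.76, adjusted p = 0.00421). The carboxylase gene ggcx, which activates vitamin K-dependent proteins, did so the other way, by −0.29 ± 0.11 and 0.45 ± 0.12, a difference of −0.74 (95% interval −1.06 to −0.43, adjusted p = 0.00222). The Wnt receptor gene fzd2 fell to 118.97, 104.3, 119.3 and 102.3 CPM with PFNA, against 157.3 to 279 CPM (median 206.4) in the DMSO pools, and had 197.95, 152.2, 165.7 and 277 CPM with PFHxS, against 156.02 to 264 CPM (median 187.8) in its DMSO pools. PFNA pools lay below all of theirs, PFHxS pools overlapped theirs, and the difference was −0.91 (95% interval −1.27 to −0.56, adjusted p = 6.52e-04). With the lowest concentrations as baseline it was −0.89 (adjusted p = 0.0461). The neural crest and epidermal factor gene tfap2a had a difference of −1.1 (95% interval −1.54 to −0.66, adjusted p = 8.80e-04), the pyrimidine-degrading enzyme gene dpys of −1.08 (95% interval −1.54 to −0.63, adjusted p = 0.00186) and the branched-chain aminotransferase gene bcat1 of 0.95 (95% interval 0.60 to 1.31, adjusted p = 3.95e-04). The probes loc110437775 and zgc-153642, for which no role is given here, had differences of 2.19 (95% interval 1.46 to 2.92, adjusted p = 7.09e-05) and 3.34 (95% interval 1.58 to 5.09, adjusted p = 0.016), the second from levels of 8.95 CPM or less in all 4 groups. For loc110437775 the solvent pools did not overlap between the sets, with 88.5 to 425 CPM (median 198.6) and 656 to 1539.8 CPM (median 854).

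None of the 8 largest negative differences named by the rule was called without PFHxS pool 4. These were loc100006797, ddit4, tfeb, enam, pdia6, krtt1c19e, tcap and krt94. The mitochondrial ADP/ATP carrier gene slc25a5, not among the 8, had 2508, 2406, 2372 and 2678 CPM with PFNA, against 1896 to 8377 CPM (median 2254) in the DMSO pools, and 3152, 2447, 3587 and 15118 CPM with PFHxS, against 2025 to 2962 CPM (median 2315) in its DMSO pools. PFHxS pool 4 and PFNA DMSO pool 10, at 8377 CPM, stood apart, and every other DMSO pool of the PFNA set held 3891 CPM or less. Its difference was −1.54 (95% interval −2.34 to −0.75, adjusted p = 0.0135), and −0.54 without PFHxS pool 4 (adjusted p = 0.531). The keratin gene krt94 had 91.9, 78.6, 113.95 and 1212 CPM with PFHxS, and its difference of −2.54 was −0.54 without that pool. The same pool held the highest PFHxS value for krtt1c19e, another keratin, loc100006797, enam, which is named for a tooth enamel protein, and tfeb, the regulator of lysosome genes. Without it, their differences of −2.76, −4.13, −2.99 and −3.20 were −0.79, −1.38, −1.67 and −1.39, and none was called. PFNA DMSO pool 10 was the highest of its 16 pools for all 6 of these genes, slc25a5 and krt94 included, and for ddit4, pdia6 and tcap as well.

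The sarcomere gene tcap and the glycolysis gene aldoaa rose with both acids, and further with PFHxS in the fit with all pools. For tcap, whose product caps titin, the level was 393, 569, 289 and 633 CPM with PFNA, against 58.8 to 780.2 CPM (median 90.1) in the DMSO pools, and 561, 316, 597 and 2789.9 CPM with PFHxS, against 40.3 to 79.2 CPM (median 53.2) in its DMSO pools. All PFHxS pools lay above all of their solvent pools, and the PFNA pools lay below the highest of theirs, which was pool 10. The muscle marker tnnt3b, a troponin gene, ranged over 15711 to 20766 CPM with PFNA, against 7091 to 26449 CPM in its DMSO pools, and over 10875 to 30045 CPM with PFHxS, against 27605 to 44510.1 CPM in its DMSO pools, and its part in the tcap result was not tested. The difference was −2.60 (95% interval −4.00 to −1.21, adjusted p = 0.0168), and −1.47 without PFHxS pool 4 (adjusted p = 0.323). At 200 µM, in other exposed pools, tcap changed by 0.41 with PFNA (adjusted p = 0.662, quasi-likelihood test). With 200 µM PFHxS it changed by 2.23 (adjusted p = 0.00285, same test). The fit that gave the spread of these changes held PFHxS pool 4. Aldolase A (aldoaa), of glycolysis, changed by 1.18 ± 0.15 with PFNA and 2.04 ± 0.18 with PFHxS, with every exposed pool above every solvent pool, and its difference of −0.86 (95% interval −1.35 to −0.36, adjusted p = 0.0256) was −0.64 without that pool (adjusted p = 0.212). Of 35 genes of glycolysis, glycogen and hypoxia, 17 were called higher and 3 lower with PFNA, 16 higher and 0 lower with PFHxS (9 higher and 1 lower without PFHxS pool 4), and 5 had a negative called difference, none without that pool. The differences of pgk1, cs and mdh1ab, enzymes of glycolysis, the citrate cycle and malate oxidation, were −0.60, −0.78 and −0.81, and they were −0.22, −0.29 and −0.65 without it, none of them called. Of 14 muscle genes, tcap and the desmin gene desma had called differences, both negative, and neither was called without that pool. The calls of ddit4, tfeb, krtt1c19e, hadh, aldoaa, pgk1, cs, snap25a, tubb2, dlg3, plk3, rrm2b, opn1sw1, col1a1a, col2a1a, ier2b, ebp, prdx1 and xbp1 also ended without at least 1 PFNA pool.

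**Figure D3:**
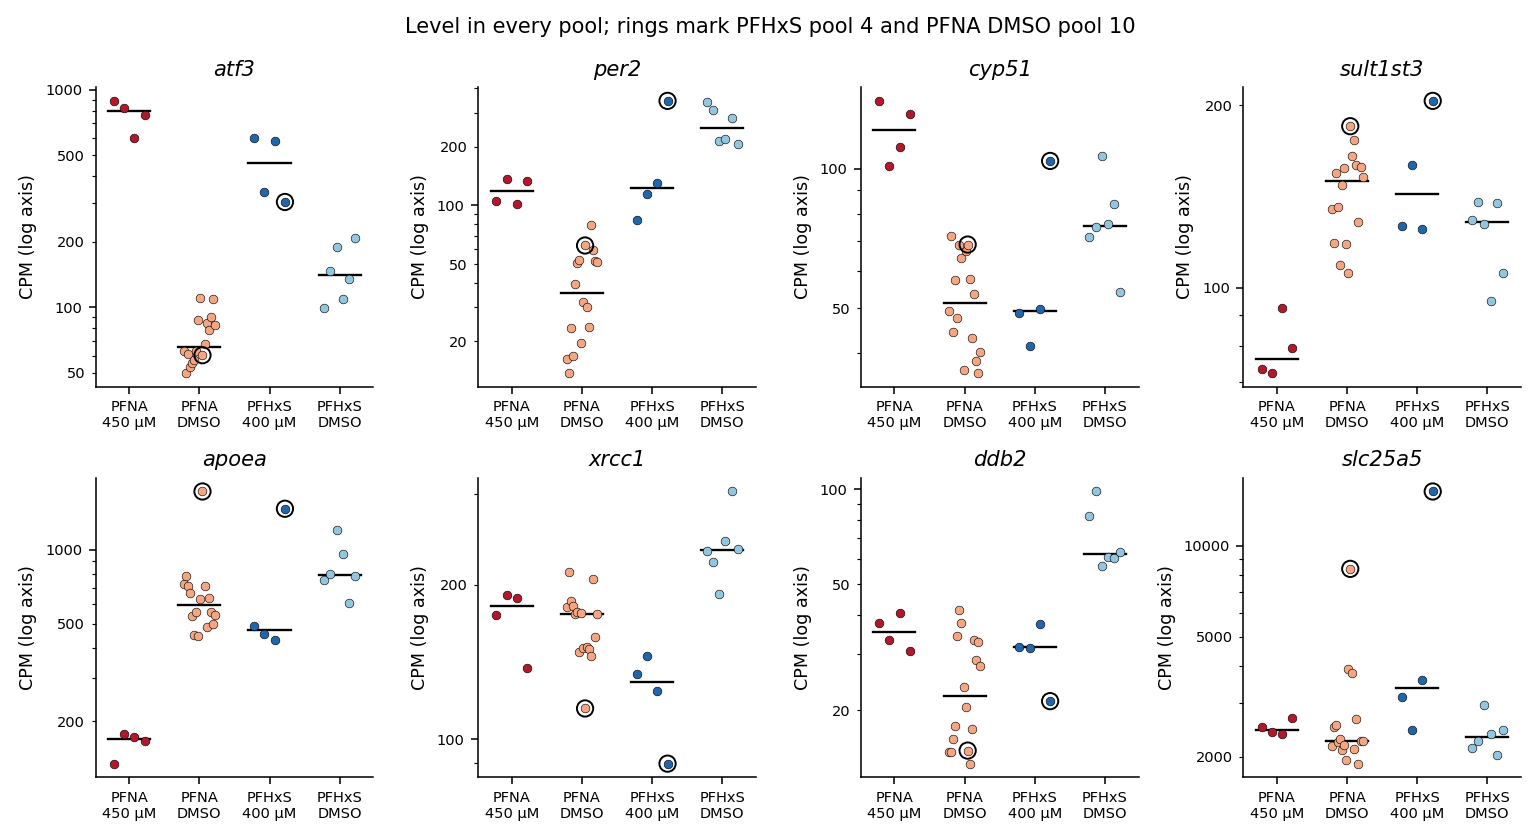
Level in CPM (counts per 1000000 counts, y axis, log scale) of 8 genes in every pool, in the order 450 µM PFNA, its DMSO pools, 400 µM PFHxS and its DMSO pools, with group medians as lines. Rings mark PFHxS pool 4 and PFNA DMSO pool 10, which stand high for slc25a5 and apoea, while the PFNA pools of atf3, per2, cyp51, sult1st3 and apoea lie clear of their solvent pools.

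Cartilage collagen and cone opsin genes fell with PFNA, and the cone opsin gene opn1sw2 was also called lower with PFHxS. In the cartilage, bone and matrix list, 25 of 39 genes were called lower and 1 higher with PFNA, and 11 lower and 1 higher with PFHxS, with median changes of −0.65 and −0.25. The 4 cartilage markers tested, of which 2 are among these genes' called differences, summed to 1166 to 1397 CPM with PFNA, against 1721 to 4553 CPM in its DMSO pools, and to 924 to 2495 CPM with PFHxS, against 1159 to 2730.0 CPM in its DMSO pools, and their part in the list's count was not tested. The difference was called lower for 5, the collagen genes col9a1a, col9a2, col9a3, col2a1a and col1a1a, and for none without PFHxS pool 4. The level of col9a3, a cartilage collagen chain, was 113.5, 97.9, 127.9 and 123.7 CPM with PFNA, against 215.00 to 425 CPM (median 247) in the DMSO pools, and 136.2, 220.4, 151.6 and 351 CPM with PFHxS, against 156.8 to 284 CPM (median 251) in its DMSO pools. Every PFNA pool was below every solvent pool and the PFHxS pools overlapped theirs. Its difference was −0.99 (95% interval −1.47 to −0.52, adjusted p = 0.00593), and −0.64 without PFHxS pool 4 (adjusted p = 0.15). The differences of col9a1a, col9a2, col2a1a and col1a1a were −1.93, −2.28, −0.94 and −0.84, and without that pool they were −1.39, −0.92, −0.68 and −0.40.

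Of 17 retina and photoreceptor genes, 9 were called lower with PFNA and 6 with PFHxS, and 0 higher with either. The list's median change was −0.44 with PFNA and −0.49 with PFHxS. The cone opsin genes opn1sw1, opn1mw1 and opn1sw2 had called differences of −1.41, −1.29 and −0.93, and without PFHxS pool 4 −0.90, −0.99 and −0.78, none called. Their changes were −1.66, −1.78 and −1.56 with PFNA and −0.25, −0.49 and −0.64 with PFHxS. Of the PFHxS changes only that of opn1sw2 was called (adjusted p = 0.0113, quasi-likelihood test). The level of opn1mw1, a green-sensitive opsin, was 629, 647, 896 and 863 CPM with PFNA, against 1627 to 4081 CPM (median 2324) in the DMSO pools, and 747, 1084, 1335 and 1998 CPM with PFHxS, against 1193 to 2169 CPM (median 1981) in its DMSO pools, and only the PFNA pools lay clear of their solvent pools. The 3 retina markers tested summed to 3419 to 4340.3 CPM with PFNA, against 4356 to 8999 CPM in its DMSO pools, and to 2221 to 5272 CPM with PFHxS, against 5883 to 7059 CPM in its DMSO pools, and their part in the opsin result was not tested. Of the nervous system genes, 2 of 44 were called higher and 6 lower with PFNA, and 3 higher and 5 lower with PFHxS (1 higher and 3 lower without PFHxS pool 4). The shares over all probes were 16.3% higher and 16% lower with PFNA, and 12.1% and 10% with PFHxS. Differences were called for 5 of them, among them 0.79 for the synaptic scaffold gene dlg3, −0.83 for the vesicle fusion gene snap25a and −0.62 for the tubulin gene tubb2, and none was called without PFHxS pool 4.

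Set side by side, the gap between the list medians in favour of PFNA was widest in the clock list, with medians of 0.48 with PFNA and −0.37 with PFHxS (0.49 and −0.089 without PFHxS pool 4). In favour of PFHxS it was widest in the cytosolic heat shock chaperones, with medians of 0.37 and 1.34 over 13 genes (0.38 and 0.83 without PFHxS pool 4), of which 5 were called higher and 0 lower with PFNA, and 7 higher and 1 lower with PFHxS. The median of the 13 differences was 0.19, of the other sign (0.073 without that pool), and only the co-chaperone gene fkbp4 had a called difference, which was not called without it. No member of the proteasome list, the erythroid list or the thyroid and glucocorticoid list had a called difference. The lists were described by counts and medians and were not tested as sets.

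**Figure D4:**
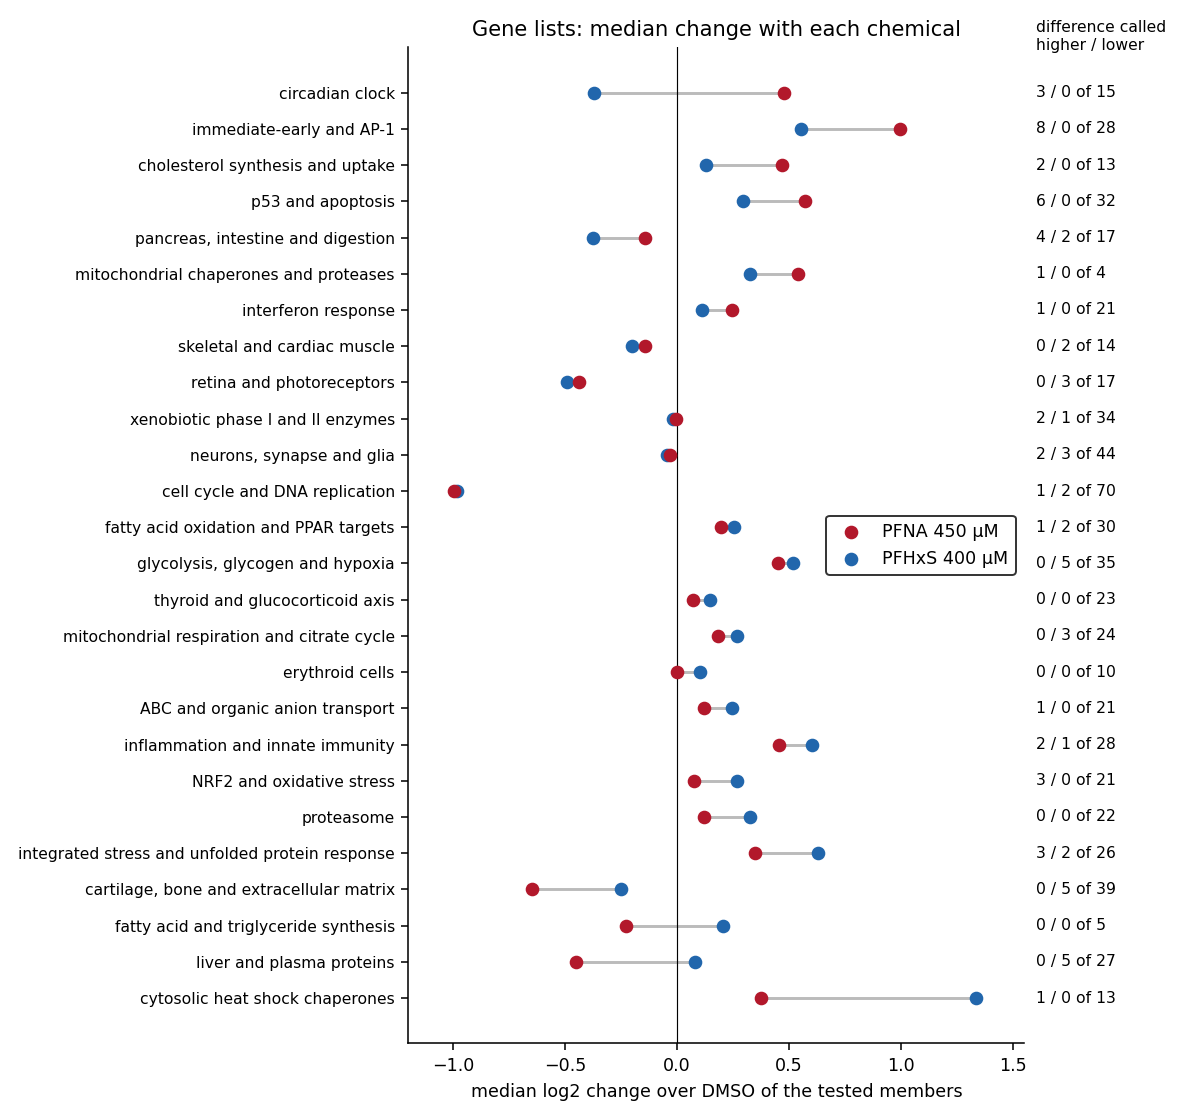
Median log2 change over DMSO (x axis) of the tested members of 26 gene lists, with 450 µM PFNA in red and 400 µM PFHxS in blue, and at the right the number of members with a called positive and negative difference. The clock, AP-1 and cholesterol lists lie further right with PFNA, the liver and matrix lists further left, and the cell cycle medians nearly coincide.

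At 200 µM of each chemical, against the same solvent pools, 63 differences were called, which is 2.2%: 45 were higher with PFNA (1.57%) and 18 lower (0.629%). At 20 µM, 30 were called, which is 1.05%: 24 higher (0.839%) and 6 lower (0.21%). Because the solvent pools are shared with the comparison at the highest concentrations, values are given side by side and not as separate support. For atf3 the difference was 1.77 at 450 against 400 µM, 0.79 at 200 µM (adjusted p = 0.0755) and 1.58 at 20 µM (adjusted p = 3.30e-05). For trib3 the 3 values were 1.16, 0.25 and 0.72, and only the first was called. At 200 µM the difference of cyp51 came from changes of 1.24 with PFNA and −0.48 with PFHxS and was 1.72 (adjusted p = 8.35e-04), and that of sult1st3 was −0.86 (adjusted p = 0.00337), while at 20 µM sult1st3 had −0.19. The difference of per2 was 2.94 at 200 µM (adjusted p = 3.88e-06) and 2.37 at 20 µM (adjusted p = 3.00e-04). For aldoaa it was −1.15 at 200 µM (adjusted p = 0.00493), from other exposed pools, although PFHxS pool 4 was in the fit that gave the spread. The difference of apoea was −0.68 at 200 µM and that of amy2a 0.73, neither called. At 200 µM btg2 changed by 0.73 with PFNA and 1.01 with PFHxS, and serpina1 by −0.56 and −0.86. For both the larger change was then with PFHxS, the reverse of the highest concentrations. Of the 185 called differences, 165 had the same sign at 200 µM and 157 at 20 µM, both against the same solvent pools. Among the 185 were 18 of the 63 calls at 200 µM and 17 of the 30 at 20 µM. The share with the same sign over all probes was not counted, and nothing is concluded from these counts.

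The number of called differences depended on which pools stood as solvent and on how batches entered. With the 4 PFNA DMSO pools of extraction batch 14 alone, the batch of all pools with 450 µM PFNA, 76 differences were called, of which 60 were among the 185. With extraction batch as a term in the fit, 22 were called, of which 17 were among the 185. Of 80 named genes with a called difference, 16 kept the call with that term and 5 with the lowest concentrations as baseline. The 80 leave out fkbp4, prss1, cel.2, sst1.1 and desma, none of which was called without PFHxS pool 4. With the RNA integrity number as a covariate, 68 were called. For the DMSO pools of the PFHxS set, adding 2 left-out pools gave 300, and adding PFHxS pools at 6, 20 and 60 µM, a choice made after seeing the data, gave 348. Within plate 1 for PFHxS, 395 were called, and within plate 2, 49.

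**Figure D5:**
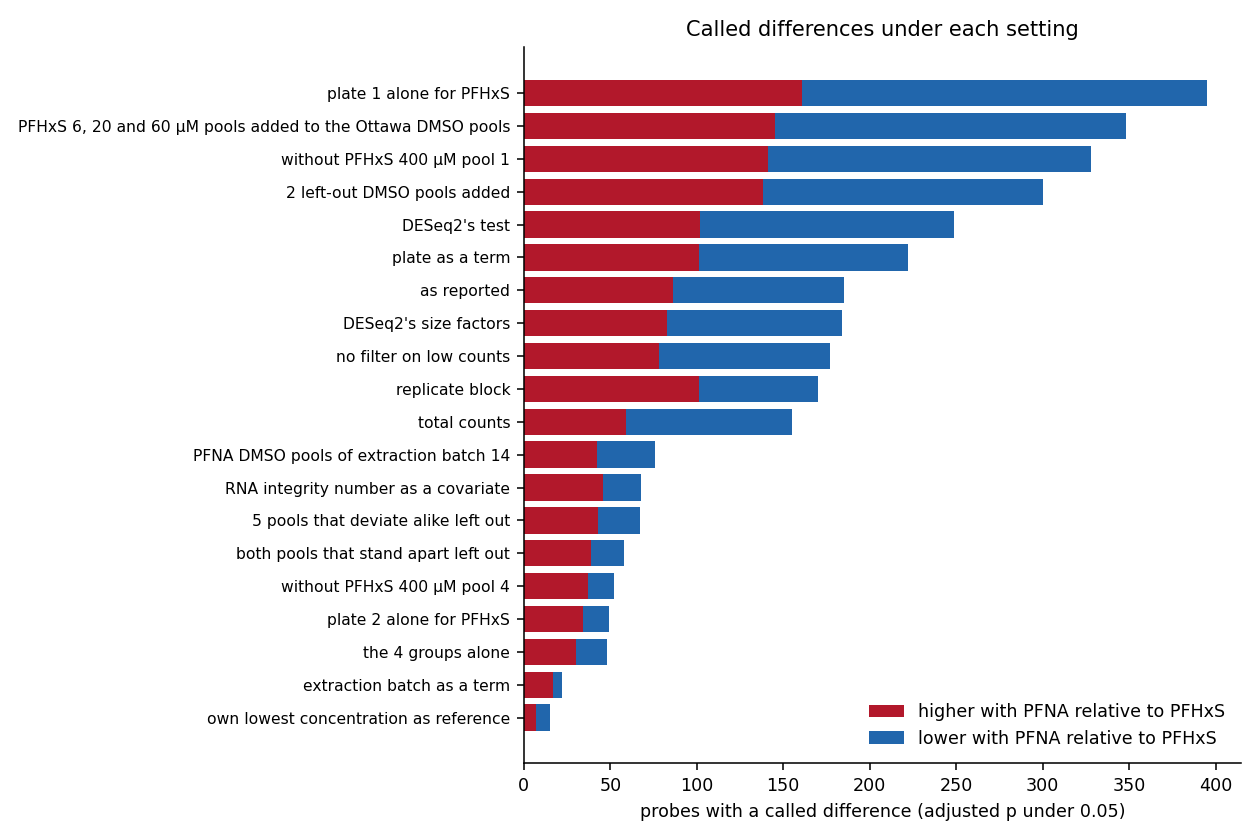
Number of probes with a called difference (x axis, edgeR's quasi-likelihood test, adjusted p under 0.05) under each setting (y axis), divided into higher (red) and lower (blue) with PFNA relative to PFHxS. The bar as reported holds 185 calls, and leaving out PFHxS pool 4 leaves 52, mostly by shortening the blue part.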

How the data were processed

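RNA of pooled zebrafish embryos was measured by TempO-Seq, and the deposited values are raw counts per probe, made by the authors, per the labels' protocols. The submitters' processing notes name fastp 0.23.2, STAR 2.7.10b and R 4.4.1; for the genome build and the counting step, no name was given in the sources used here. Groups came from the labels. No count column was unused (0). Total counts had a median of 3454832.5 per pool.

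The 62 pools of the 12 groups with PFNA, PFHxS or their DMSO were fitted together with edgeR 4.0.16 (limma 3.58.1, R 4.3.3) and TMM scaling. Probes of low count were removed by edgeR's filterByExpr, given the groups, which left 2861 of 3183 probes. Each difference was tested by the quasi-likelihood test, with Benjamini-Hochberg adjustment over all probes tested and a threshold of 0.05. Changes are log2 fold changes from counts, with 95% intervals from the same fit. CPM values were scaled by TMM. Scripts were tested on simulated data. The comparison, its members and the gene lists were chosen with earlier results of these data known. Probe symbols were matched to gene names for 2995 of 3183 probes, and 64 genes had several probes, of which the one with the highest mean count was used. Named were the 8 largest positive and the 8 largest negative called differences, the 4 with the smallest p in each class of calls, the 3 with the smallest p in each list with 3 or more called differences, and the 4 highest and 4 lowest shared changes.

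Pools of a group differed by more than counting error (lowest chi-square per degree of freedom 6.86). Nothing says that pools came from separate spawnings, so p-values measure the spread between these pools, which may be technical. Alternatives were other scalings, no filter, DESeq2 1.42.0, other sets of solvent pools, terms for plate, extraction batch, RNA integrity and replicate, and each pool left out. Leaving out the pools that stand apart, or adding low PFHxS concentrations to the solvent pools, was chosen after seeing the data. Promoter sequences were not used here.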

Additional observations from a re-analysis of the deposited data

Results flagged for a closer look

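Dixon's test on the named genes in the groups of 4 to 10 pools covered 264 groups of values and marked 34. Chance alone marks about 1 in 20 groups of genes picked blindly. The genes here were mostly named by differences in these same pools, so the 34 cannot be set against that rate. Of the 34, 22 were values of PFHxS pool 4 at 400 µM. It stood high for loc100006797 (62.7 CPM, against 3.80 CPM), ddit4 (148.9 CPM, against 22.2 CPM), enam (65.1 CPM, against 14.3 CPM), pdia6 (45.7 CPM, against 7.76 CPM), krtt1c19e (2110.3 CPM, against 277 CPM), tcap (2789.9 CPM, against 597 CPM), krt94 (1212 CPM, against 113.95 CPM), apoea (1470.2 CPM, against 490.0 CPM) and slc25a5 (15118 CPM, against 3587 CPM), each set beside the nearest of the other 3 pools. It was also high for cd36 (547 CPM, against 276 CPM), hadh (1278 CPM, against 415 CPM), col9a1a (43.2 CPM, against 17.5 CPM), col1a1a (658 CPM, against 316 CPM), snap25a (527 CPM, against 244 CPM), f2 (160.8 CPM, against 62.2 CPM), pgk1 (4906 CPM, against 2475 CPM), cs (1068 CPM, against 437 CPM), cyp51 (104.1 CPM, against 49.7 CPM) and col9a2 (618 CPM, against 139.7 CPM). It stood low for nr1i2 (288 CPM, against 377 CPM), myd88 (64.1 CPM, against 150.7 CPM) and plk3 (76.2 CPM, against 318 CPM).

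Among the pools with 450 µM PFNA, the high values apart from the other pools were 8.95 CPM for pdia6 in pool 4 (nearest 4.58 CPM), 15.6 CPM for cenpf in pool 4 (nearest 11.4 CPM), 127.5 CPM for ptgs2b in pool 1 (nearest 87.6 CPM) and 51.9 CPM for alpi.2 in pool 4 (nearest 32.7 CPM). The low ones were 555 CPM for trib3 in pool 3 (nearest 778 CPM) and 503 CPM for xiap in pool 4 (nearest 558 CPM). In the DMSO pools of the PFHxS set, the high values were 751 CPM for krtt1c19e in pool 3 (nearest 292 CPM), 4403 CPM for rps27l in pool 4 (nearest 2879 CPM), 321 CPM for cs in pool 3 (nearest 293 CPM), 4.44 CPM for mmp9 in pool 3 (nearest 1.91 CPM), 18.8 CPM for btr22 in pool 1 (nearest 4.37 CPM) and 27.1 CPM for rrm2b in pool 1 (nearest 20.4 CPM). The DMSO group of the PFNA set, with 16 pools, was not tested this way. What sets these values apart was not tested.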

How the results depend on the processing

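The count of 185 called differences moved by less than 1.5 times with DESeq2's size factors, total counts, no filter, DESeq2's test (249) and plate as a term (222). It was 48 with the 4 groups fitted alone, 15 with the lowest concentrations as baseline, 76 with the PFNA DMSO pools of extraction batch 14, 300 with 2 left-out DMSO pools added, 22 with extraction batch as a term, 395 and 49 with plates 1 and 2 alone for PFHxS, and 68 with RNA integrity as a covariate. Chosen after seeing the data, it was 58 without both pools that stand apart, 67 without the 5 pools that deviate alike and 348 with PFHxS pools at 6, 20 and 60 µM added to the DMSO pools. Leaving out each pool in turn gave 52 to 328. The share higher was 46.5% as reported, 62.5% in the 4 groups alone, 77.3% with extraction batch, 69.4% with plate 2, 67.6% with RNA integrity, 59.4% with the replicate block, 71.2% without PFHxS pool 4, and 67.2% and 64.2% without the 2 or 5 pools. What moves the count under these settings was not tested.

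With the replicate number as a block 170 differences were called, 69 of them lower. Same-numbered pools did not deviate together: the correlation of deviations from group means lay between −0.23 and 0.076 for PFNA against its DMSO pools, between −0.19 and 0.030 for PFHxS against its DMSO pools and between −0.062 and 0.24 between the chemicals. The PFNA DMSO pools numbered 1 to 4 were of extraction batch 11 and the pools with 450 µM PFNA of batch 14. In the PFHxS set the numbers did not follow the batches either. The check therefore cannot show whether pools were paired, and nothing is concluded from calls lost under the block.

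The PFNA count of 925 was 459 with the lowest concentration as baseline, 567 with batch 14 alone and 614 with extraction batch, and 749 to 998 without 1 pool. The PFHxS count of 632 was 408 in the 4 groups alone, 310 with extraction batch and 211 with plate 2, and 467 to 700 without 1 pool. At 200 µM the 63 differences became 1, 38, 32, 15 and 7 with the lowest concentrations, batch 14, extraction batch, plate 1 and plate 2. Of 80 named genes with a called difference, which leave out fkbp4, prss1, cel.2, sst1.1 and desma, 79 kept their sign under every alternative. The other, fosl1a, had −0.042 with the lowest concentrations as baseline. Without each pool in turn 37 kept the call, and without PFHxS pool 4, 40. Without PFNA pools 1, 2, 3 and 4, 62, 65, 68 and 70 kept it.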
